A study of Homo sapiens with 2 samples.

Results

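The 41 genes examined here are those of the hypoxia response and of glycolysis, read in human Calu-3 cells that were either stretched cyclically or left unstretched. They were taken as a fixed list of gene symbols, chosen with earlier results of these data known. Each gene was represented by every array probe set that the platform annotation assigns to it and to no other gene. That gave 38 genes out of 19775 named genes on the array, with 90 probe sets, plus 3 control probe sets for GAPDH. CA9, SLC16A1 and SLC16A3 had no probe set in the annotation used here and were not analysed. Calu-3 is a lung adenocarcinoma line that grows as a tight epithelial sheet. The stretched culture sat on a flexible plate coated with type I collagen, in medium with 10% serum, and was held for 18 h under cyclic sine-wave strain. Its minimum was 0.7% and its maximum 20%, with 2 s of strain followed by 2 s of rest. The other culture, of the same line and also labelled 18 h, had no cyclic stretch. Each condition was read on 1 Affymetrix array (n = 1), so no difference below has a replicate check, an SD or a test, and each compares 2 arrays, not 2 conditions. Nothing in the labels states the oxygen level, and culture density is given as about 80% confluence in the protocol and as confluent in the design text. The RNA came from whole cultures, in which fewer cells of a kind and less RNA per cell cannot be told apart.

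Cells sense oxygen through prolyl hydroxylases of the EGLN family, which mark the alpha subunits of hypoxia-inducible factor (HIF) for destruction while oxygen is present. When oxygen falls, HIF1A or EPAS1 (HIF-2 alpha) accumulates as protein, pairs with ARNT and binds DNA at the hypoxia response element, whose core is A or G followed by CGTG. Textbook targets fall into those outside glycolysis, such as VEGFA, ADM, BNIP3 and NDRG1, and those within it, which run from the glucose transporter SLC2A1 to lactate dehydrogenase LDHA. Glycolytic enzymes are also kept at a high level by factors other than HIF, MYC among them, in most dividing cells.

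Between these arrays, the listed HIF targets outside glycolysis were lower as a group and the listed glycolytic genes differed little. The members and lists were chosen with earlier results of these data known, so the counts describe these arrays and are not a test. All 13 named HIF targets outside glycolysis were measured, and all 13 were lower in the stretched array in their brightest probe set, 7 of them at least 2-fold. Across all 13473 measured genes, 6681 lay below 0 and 6789 above. Of them, 7.54% were lower by 2-fold or more and 7.79% higher by that much. None of the 19 measured glycolytic enzymes and transporters differed 2-fold in either direction, and 14 of the 19 lay above 0. Under the 3 other scalings tried, all 13 HIF targets outside glycolysis still lay below 0, while 12 to 16 of the glycolytic genes lay above it. The median log2 difference (log2 signal of the stretched minus that of the non-stretched array) was -1.01 for the HIF targets outside glycolysis, 0.22 for the glycolytic genes and 0.004 for all measured genes. The medians of the 2 groups were thus 1.23 apart on the log2 scale, and 11 of the 13 HIF targets outside glycolysis lay below the lowest glycolytic gene.

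**Figure D1:**
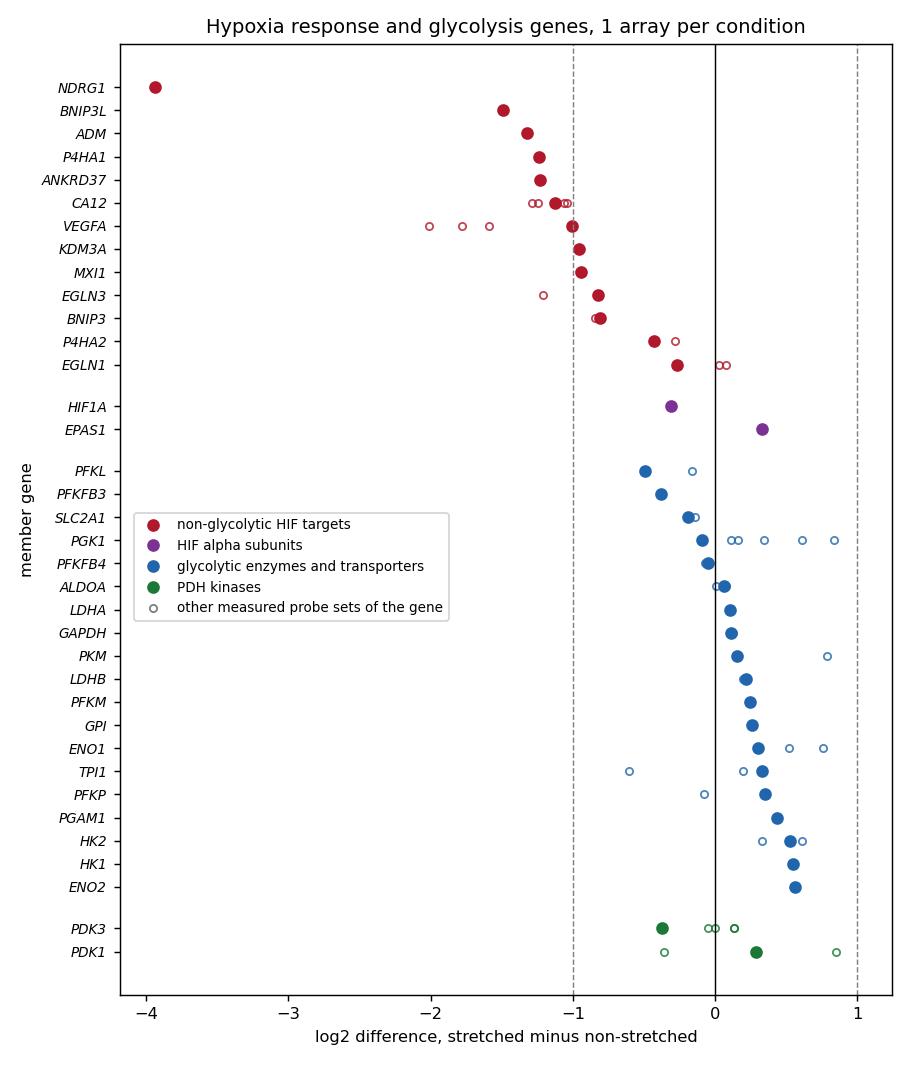
Log2 difference, stretched minus non-stretched, of each of the 36 measured members in its brightest probe set (filled points) and in its other measured probe sets (open points), with 1 array per condition and dashed lines at a 2-fold difference. The HIF targets outside glycolysis lie from -3.94 to -0.27 in their brightest probe set and the glycolytic genes from -0.49 to 0.56.

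A gene was called measured when its brightest probe set exceeded the array's median signal (28.4 in the stretched and 28.7 in the non-stretched array, used as a floor) in at least 1 array. Of the 38 members, 36 exceeded it in both arrays. SLC2A3, a high-affinity glucose transporter, and ALDOC, the brain-type aldolase, were below it in both and have no difference. The 75th percentiles were 249.0 in the stretched and 231.1 in the non-stretched array, 0.11 apart on the log2 scale. Spike-in controls, added in equal amounts, had a median log2 difference of -0.11 over 18 probe sets, so a scaling uncertainty of about this size applies to each value. The ratio of the 5′ to the 3′ control probe set of GAPDH, a sign of RNA integrity, was 1.16 in the stretched and 1.14 in the non-stretched array. The SD of a single probe set's log2 difference, from 2 probe sets of the same gene in 5818 genes, was 0.36, which covers probe and isoform differences but no variation between cultures. All 8 epithelial markers examined were above the floor, and CFTR was 2.69-fold lower in the stretched array. Their summed signal was 49259 in the stretched and 52619 in the non-stretched array. KRT8, KRT18 and KRT19 held most of that sum and were at 0.21, 0.22 and 0.13 on the log2 scale. The others were lower in their brightest probe sets: EPCAM at -0.15, CDH1 at -0.38, CLDN4 at -0.67, ESRP1 at -0.80 and CFTR at -1.43. Of markers of other cell types, 4 of 5 leukocyte, 3 of 7 fibroblast and 1 of 5 endothelial genes exceeded the floor in at least 1 array. The summed signals of these lists were 1590, 194.8 and 90.7 in the stretched array, against 1369, 244.7 and 93.8 in the non-stretched array, and none of their genes differed 2-fold in its brightest probe set, although another COL1A1 probe set was at -2.52. LYZ, which airway gland cells also make, held most of the leukocyte sum with 1462 in the stretched and 1220 in the non-stretched array, and PTPRC, PDGFRB and CDH5 were below the floor in both arrays. The part of these genes in the results was not tested.

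The letters of the hypoxia response element are shown first, because windows near the start sites of both groups of genes hold them. Promoter windows from RefSeq (GRCh38.p14), running from 250 bases before to 50 after an annotated start, were at hand for 10 of the 13 measured HIF targets outside glycolysis and for all 19 measured glycolytic genes; NDRG1, BNIP3L and VEGFA had none. The motifs searched were ACGTG and GCGTG on both strands. A core was found in at least 1 window of 8 of 10 HIF targets outside glycolysis and of 18 of 19 glycolytic genes, against 52.4% of all 27305 genes with a window. The stricter ACGTG was found in 5 of 10 and 11 of 19, against 24.9% of all genes. Genes with several annotated starts have more windows and so more chances to hold a match. A match is a string of letters and not a measured binding site. Windows of 2 genes from each group follow, printed 5′ to 3′ on the gene's own strand in lower case with every core on either strand in capitals (CACGT and CACGC are the cores read on the other strand).
ANKRD37, chr4:185396591-185396890, plus strand: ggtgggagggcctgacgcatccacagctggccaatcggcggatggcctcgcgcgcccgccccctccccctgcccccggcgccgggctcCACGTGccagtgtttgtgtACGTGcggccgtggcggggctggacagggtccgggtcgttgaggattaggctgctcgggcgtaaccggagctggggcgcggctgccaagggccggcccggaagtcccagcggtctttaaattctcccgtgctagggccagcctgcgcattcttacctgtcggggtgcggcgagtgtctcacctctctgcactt
BNIP3, chr10:131981874-131982173, minus strand: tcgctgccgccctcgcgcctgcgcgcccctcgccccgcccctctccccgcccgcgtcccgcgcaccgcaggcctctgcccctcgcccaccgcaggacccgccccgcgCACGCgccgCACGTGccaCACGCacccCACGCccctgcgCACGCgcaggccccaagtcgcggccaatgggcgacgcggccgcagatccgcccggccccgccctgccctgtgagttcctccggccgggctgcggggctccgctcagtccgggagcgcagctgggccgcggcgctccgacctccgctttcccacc
LDHA, chr11:18394313-18394612, plus strand: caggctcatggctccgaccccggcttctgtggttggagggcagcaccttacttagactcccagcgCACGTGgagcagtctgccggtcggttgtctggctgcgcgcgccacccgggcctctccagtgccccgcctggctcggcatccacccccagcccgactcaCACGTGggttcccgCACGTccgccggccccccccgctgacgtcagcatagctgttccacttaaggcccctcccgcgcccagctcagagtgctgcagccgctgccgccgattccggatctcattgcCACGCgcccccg
PGK1, chrX:78103998-78104297, plus strand: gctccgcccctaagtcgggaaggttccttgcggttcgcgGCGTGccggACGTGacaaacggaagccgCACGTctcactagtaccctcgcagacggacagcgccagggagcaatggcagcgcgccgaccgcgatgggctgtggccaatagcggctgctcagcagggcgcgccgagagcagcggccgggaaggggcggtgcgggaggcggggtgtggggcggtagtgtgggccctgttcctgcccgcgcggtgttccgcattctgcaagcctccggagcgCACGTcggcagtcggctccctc
The ANKRD37 window held 3 cores and the BNIP3 window 6, while the LDHA window, which has the more cores of 2 annotated starts, held 6 and the PGK1 window 4. Most other windows of the members held fewer cores than any of these, and those of EGLN3 and P4HA2 held none. A palindromic CACGTG counts once on each strand. ANKRD37 was 2.35-fold and BNIP3 1.75-fold lower in the stretched array, and LDHA and PGK1 stood at 0.11 and -0.09 on the log2 scale.

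Among the oxygen sensors and factors themselves, HIF1A, EPAS1 and EGLN1 differed by less than the SD of a single probe set and EGLN3 was lower. HIF1A, the alpha subunit that most cells use in acute hypoxia, had a signal of 5401 in the stretched and 6689 in the non-stretched array, a log2 difference of -0.31 in its 1 probe set. EPAS1, the HIF-2 alpha subunit, had 1384 in the stretched and 1099 in the non-stretched array, a log2 difference of 0.33. The 2 differences had opposite signs. HIF alpha is controlled mainly as protein, which was not measured. EGLN1 (PHD2), the main oxygen-dependent hydroxylase and itself a HIF target, had 1174 in the stretched and 1412 in the non-stretched array, a log2 difference of -0.27, and its other 2 measured probe sets were at 0.08 and 0.03. EGLN3 (PHD3), the family member that responds most to hypoxia in many cell types, had 103.0 in the stretched and 181.8 in the non-stretched array, 1.77-fold lower. Its second probe set had 51.2 in the stretched and 118.2 in the non-stretched array, a log2 difference of -1.21. Both EGLN3 probe sets were therefore lower and the 3 measured EGLN1 probe sets lay near 0.

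The wider HIF pathway list, made of partners, hydroxylases, the VHL ubiquitin ligase and coactivators, had 13 measured genes with a median log2 difference of -0.23. Of these, 1 was at least 2-fold lower, or 7.69% against 7.54% of all measured genes, and none was 2-fold higher. The 1 gene was ARNT2, an alternative HIF partner, with 27.3 in the stretched array (below the floor) and 105.5 in the non-stretched array, at least 3.72-fold lower. The usual partner ARNT was at -0.29, the third hydroxylase EGLN2 at 0.62 with signals of 44.1 in the stretched and 23.3 (below the floor) in the non-stretched array, and VHL, which recognises hydroxylated HIF alpha, at 0.38. HIF1AN, the asparagine hydroxylase that blocks coactivator binding, was at -0.43 and HIF3A at -0.23.

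NDRG1, a cytoplasmic protein induced by hypoxia, iron depletion and differentiation, had the largest difference of all members. Its signal was 94.8 in the stretched and 1455 in the non-stretched array, a log2 difference of -3.94. It ranked 2nd from the lowest of the 13473 measured genes, on the evidence of 1 probe set, whose name ends in _s_at. The other genes of its family were not lower as a set: NDRG3 was at 0.41, NDRG2 at -0.54 and NDRG4 at 0.44. NDRG2 (42.2 in the stretched and 61.2 in the non-stretched array) and NDRG4 (43.5 in the stretched and 32.1 in the non-stretched array) were dim.

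The paired mitophagy receptors BNIP3 and BNIP3L (NIX), which sit on the outer mitochondrial membrane and tie mitochondria to autophagosomes, were both lower. BNIP3L had 815 in the stretched and 2296 in the non-stretched array, 2.82-fold lower, and its 2 probe sets gave the same log2 difference, -1.49. BNIP3 had 994 in the stretched and 1740 in the non-stretched array, 1.75-fold lower, with its 2 probe sets at -0.81 and -0.85. Within each gene the probe sets agreed more closely than the 2 genes did with each other.

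VEGFA, ADM and CA12 encode secreted or surface proteins that act outside the cell. VEGFA, the main growth factor for blood vessels, had 2413 in the stretched and 4854 in the non-stretched array in its brightest probe set, 2.01-fold lower. Its other 3 probe sets differed more, with log2 differences of -1.59, -1.78 and -2.01. The last had signals of 123.9 in the stretched and 498.8 in the non-stretched array. All 4 VEGFA probe sets were thus at least 2-fold lower, and they spread from -2.01 to -1.01; each can bind a different mix of the gene's splice forms. ADM, the vasodilator peptide adrenomedullin, had 190.9 in the stretched and 478.5 in the non-stretched array, 2.51-fold lower in its 1 probe set. CA12, a membrane carbonic anhydrase that hydrates carbon dioxide at the cell surface, had 920 in the stretched and 2004 in the non-stretched array, 2.18-fold lower. Its 5 measured probe sets ranged from -1.29 to -1.04 on the log2 scale, so each was at least 2-fold lower.

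The collagen prolyl 4-hydroxylase subunits P4HA1 and P4HA2, which modify procollagen in the endoplasmic reticulum, differed in size. P4HA1 had 1114 in the stretched and 2630 in the non-stretched array, a log2 difference of -1.24 in its 1 measured probe set. P4HA2 had 1919 in the stretched and 2579 in the non-stretched array, a log2 difference of -0.43, with its other measured probe set at -0.28. PLOD2 and PLOD1, collagen lysyl hydroxylases named after their values were seen, were at -1.01 and -0.80.

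The remaining members of this group act in the nucleus or have less settled roles. ANKRD37, an ankyrin-repeat protein and a sensitive HIF target, had 199.1 in the stretched and 467.9 in the non-stretched array. KDM3A (JMJD1A), a histone H3 lysine demethylase, had 643 in the stretched and 1245 in the non-stretched array, 1.94-fold lower. MXI1, a MYC antagonist that competes for MAX, had 528 in the stretched and 1017 in the non-stretched array, 1.93-fold lower. KDM3A and MXI1 lay just short of the 2-fold line and VEGFA just past it in its brightest probe set, so a small change of scale alters the count. Centring on the 75th percentile put KDM3A and MXI1 past the line as well, which gave 9 of the 13 genes, and centring on the spike-ins left 6, with VEGFA at -0.89. At 1.5-fold, 11 of the 13 were lower, against 16.8% of all measured genes, and the 2 that were not were EGLN1 and P4HA2. Counted by probe set, 16 of the 26 measured probe sets of this group were at least 2-fold lower and none at least 2-fold higher, against 6.48% lower and 8.66% higher among all measured probe sets named for 1 gene.

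**Figure D2:**
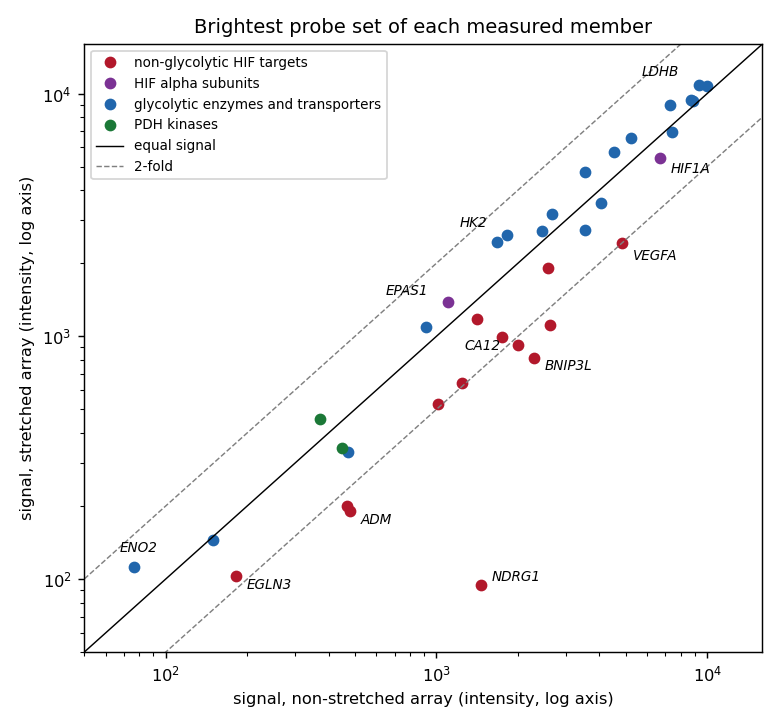
Signal of each measured member's brightest probe set in the stretched array (vertical log axis) against the non-stretched array (horizontal log axis), 1 array each, with lines for equal signal and for a 2-fold difference. NDRG1 lies far below the lower dashed line at 94.8 against 1455, and the glycolytic genes run along the line of equal signal.

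A second list of HIF targets, also chosen with earlier results known, held differences in both directions. Of these targets 36 were named and 35 measured. At least 2-fold lower were 13 of the 35 (37.1%, against 7.54% of all measured genes), and 2 were higher by that much, with a median log2 difference of -0.26 against 0.004 for all measured genes. CCNG2, an atypical cyclin linked to cell cycle exit, was 6.48-fold lower, although 1 of its 5 measured probe sets was at 0.28. PPP1R3C, which targets protein phosphatase 1 to glycogen, was 4.75-fold lower and VLDLR, a lipoprotein receptor, 4.05-fold lower. DDIT4 (REDD1), an inhibitor of mTORC1, had 1858 in the stretched and 5980 in the non-stretched array, 3.22-fold lower. The histone demethylase KDM5B was 2.68-fold lower, and its 4 measured probe sets ran from -1.44 to -0.21 on the log2 scale. LOX, which cross-links collagen, was lower by at least 1.16 on the log2 scale in each of its 3 measured probe sets. The 2 that were higher, named after their values were seen, were the chemokine receptor CXCR4 at 1.40 and the creatine transporter SLC6A8 at 1.07. ANGPTL4 at 0.96, with its other measured probe set at 1.28, and HILPDA at 0.60 were named likewise. Of the 35 genes, 25 lay below 0 and 10 above. At 1.5-fold, 15 were lower and 4 higher, against 16.8% and 17.9% of all measured genes. Several genes on this list are controlled by other pathways as well, and 20 of the 35 differed by less than 2-fold.

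Glycolysis begins with uptake and phosphorylation of glucose. SLC2A1 (GLUT1), the main glucose carrier of most cultured cells, had 3532 in the stretched and 4040 in the non-stretched array, a log2 difference of -0.19. HK1, the housekeeping hexokinase, had 2441 in the stretched and 1670 in the non-stretched array, a log2 difference of 0.55. HK2, the inducible hexokinase and a HIF target, had 2625 in the stretched and 1821 in the non-stretched array, a log2 difference of 0.53, and its other 2 probe sets were at 0.61 and 0.33. In their brightest probe sets and on the deposited scale, none of the listed glycolytic genes was 1.5-fold higher or lower. Among all measured genes, 17.9% were higher and 16.8% lower by that much. With centring on the spike-ins, HK1, HK2 and ENO2 stood at 0.66, 0.64 and 0.67, past 1.5-fold. PFKL was past 1.5-fold lower with centring on the 75th percentile (-0.60) and with quantile normalization (-0.62). TPI1 was too, at -0.60, when probe sets ending in _x_at or _s_at were left out. GPI, which turns glucose 6-phosphate into fructose 6-phosphate, was at 0.26.

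The phosphofructokinase step, where flux is regulated, had members on both sides of 0. PFKP, the platelet-type subunit, had 5747 in the stretched and 4513 in the non-stretched array, a log2 difference of 0.35, and PFKM, the muscle type, was at 0.25. PFKL, the liver type, had 335 in the stretched and 471 in the non-stretched array, a log2 difference of -0.49, with its second probe set at -0.16. The bifunctional enzymes that make the PFK activator fructose 2,6-bisphosphate were both below 0. PFKFB3 had 2728 in the stretched and 3544 in the non-stretched array, a log2 difference of -0.38, and PFKFB4 was at -0.05. PFKL and PFKFB3 were the only listed glycolytic genes lower by more than the SD of a single probe set. The 4 higher by more than this SD were HK1, HK2, PGAM1 and ENO2.

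From aldolase to pyruvate no measured probe set differed 2-fold. ALDOA was at 0.07 and GAPDH at 0.11, with 10766 for GAPDH in the stretched and 9972 in the non-stretched array and all 3 of its ordinary probe sets between 0.11 and 0.13. TPI1 was at 0.33, although a dim probe set, with 36.2 in the stretched and 55.0 in the non-stretched array, gave -0.60. PGK1 had 6928 in the stretched and 7400 in the non-stretched array in its brightest probe set, a log2 difference of -0.09, and its other 5 probe sets ranged from 0.11 to 0.83. PGK1 lies below 0 by that 1 probe set of 6. PGAM1 had 4761 in the stretched and 3529 in the non-stretched array, a log2 difference of 0.43. ENO1, the main enolase, had 8991 in the stretched and 7280 in the non-stretched array, at 0.30, with its other 2 measured probe sets at 0.52 and 0.76. ENO2, the neuron-type enolase, had 112.5 in the stretched and 76.3 in the non-stretched array, at 0.56. PKM, pyruvate kinase, was at 0.15, with its other probe set at 0.79.

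**Figure D3:**
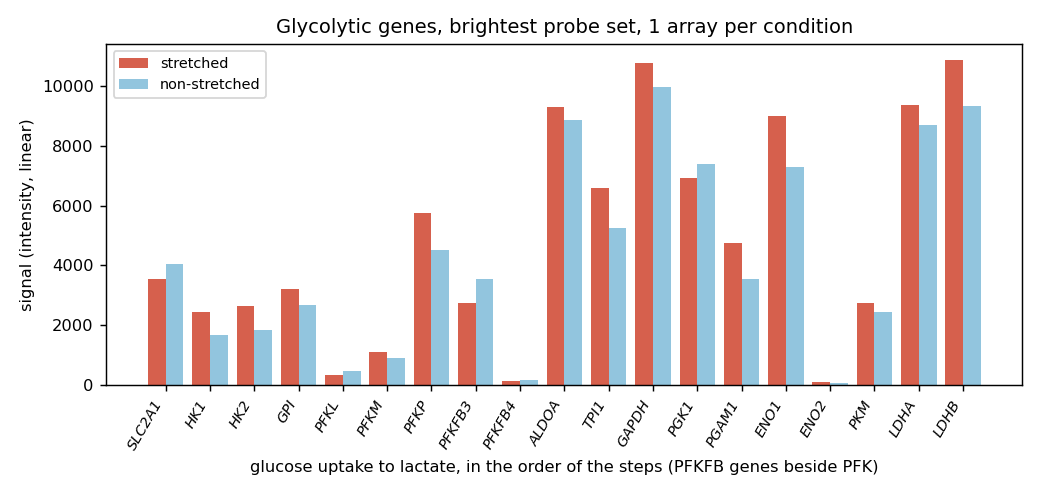
Linear signal of the brightest probe set of the 19 measured glycolytic genes in the stretched (left bar) and non-stretched (right bar) array, in pathway order, with 1 array per condition and no error bars. The 2 bars of a pair differ by less than 1.5-fold at each step, with the largest ratio at ENO2 (112.5 in the stretched and 76.3 in the non-stretched array); heights of different genes come from different probes and are not comparable.

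At the end of the pathway, lactate dehydrogenase subunits LDHA and LDHB had log2 differences of 0.11 and 0.22. LDHA had 9362 in the stretched and 8698 in the non-stretched array, and LDHB had 10861 in the stretched and 9329 in the non-stretched array. The pyruvate dehydrogenase kinases, which hold pyruvate back from the mitochondrion, were PDK1, with 456 in the stretched and 373 in the non-stretched array (log2 difference of 0.29), and PDK3, with 347 in the stretched and 449 in the non-stretched array (-0.37). PDK1 is a HIF target whose product is not a glycolytic enzyme, and its 3 measured probe sets ran from -0.36 to 0.85. The PDK1 probe set at -0.36 had 27.1 in the stretched (below the floor) and 36.3 in the non-stretched array, and the others were at 0.29 and 0.85. The 5 PDK3 probe sets ran from -0.37 to 0.13. Neither kinase had a direction shared by all its probe sets. The 10 measured genes for pyruvate entry into mitochondria had a median of -0.02. None of them differed 2-fold, against 7.54% lower and 7.79% higher among all measured genes. PDK2 was at -0.61, with its other measured probe set at 0.24, and PDK4 at -0.37, both dim.

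By brightness, the 2 groups were read in different ranges, and large differences were rarer among bright probe sets. The geometric mean signal of the 2 arrays had a median of 1288 for the HIF targets outside glycolysis (136.8 to 3422) and of 3777 for the glycolytic genes (92.7 to 10362). Of the 412 measured genes with a mean signal of at least 5000, none was at least 2-fold lower and 0.243% were at least 2-fold higher, and 8 glycolytic genes fell in that range. How far array saturation compresses differences there was not tested. Between 2000 and 5000, the 7 glycolytic genes had a median of 0.26 and none differed 2-fold, whereas VEGFA and P4HA2, the 2 HIF targets outside glycolysis in that range, stood at -1.01 and -0.43. Of all 1468 genes in that range 2.38% were at least 2-fold lower. Between 500 and 2000, 3 of 7 HIF targets outside glycolysis were at least 2-fold lower, against 5.41% of 4070 genes, and below 500, 3 of 4 were, against 10.1% of 7523 genes. The 1 glycolytic gene between 500 and 2000, PFKM, was at 0.25, and the 3 below 500 had a median of -0.05, with none of these 4 differing 2-fold. With genes under 500 left out, the medians were -0.95 over 9 HIF targets outside glycolysis and 0.23 over 16 glycolytic genes.

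A probe set whose name ends in _x_at or _s_at may also detect a related transcript, and several glycolytic enzymes have processed pseudogenes. Such probe sets represented 7 of the 13 HIF targets outside glycolysis and 13 of the 19 glycolytic genes, so single values of these genes are uncertain to that extent. Without them, 8 HIF targets outside glycolysis were left with a median of -1.09, 4 of them at least 2-fold lower, and 9 glycolytic genes with a median of 0.15.

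**Figure D4:**
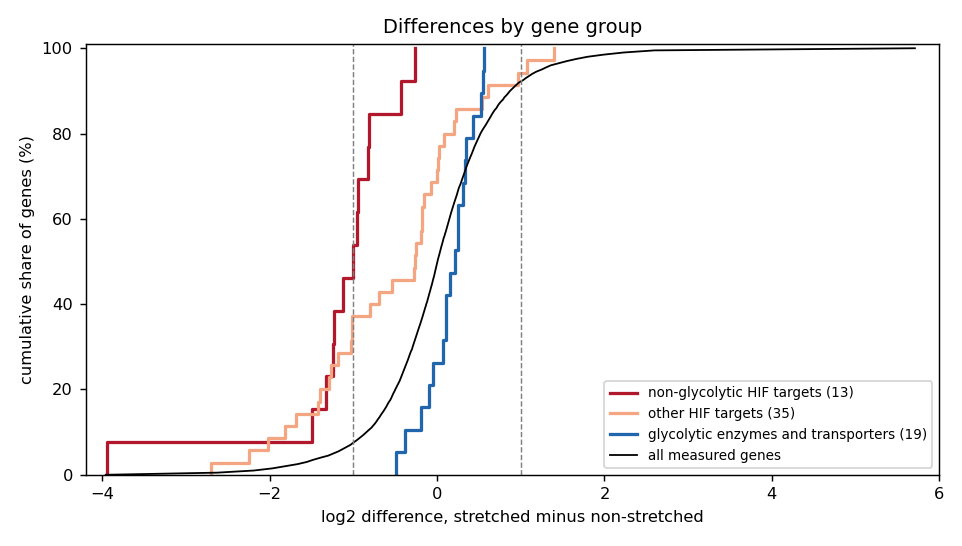
Cumulative share of genes (vertical axis, %) by log2 difference, stretched minus non-stretched (horizontal axis), for 13 HIF targets outside glycolysis, 35 other HIF targets, 19 glycolytic genes and all 13473 measured genes, 1 array per condition. The curve of the 13 HIF targets outside glycolysis crosses the midline at -1.01 and that of the 35 other HIF targets at -0.26. The curve of the glycolytic genes crosses it at 0.22 and that of all genes close to 0.

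Differences of 2-fold or more were found among genes next to glycolysis. The list of other glycolytic isozymes and sugar carriers had 17 measured genes with a median log2 difference of -0.31, of which 4 were at least 2-fold lower and none was 2-fold higher, against 7.54% lower and 7.79% higher among all measured genes. SLC2A12 and SLC2A10, sugar carriers of the same family as SLC2A1, were 5.33-fold and 5.08-fold lower, with 144.5 for SLC2A12 in the stretched and 770.1 in the non-stretched array, and 317.9 for SLC2A10 in the stretched and 1616 in the non-stretched array. BPGM, which makes 2,3-bisphosphoglycerate from a glycolytic intermediate, had 797 in the stretched and 3283 in the non-stretched array, 4.12-fold lower in its 1 probe set. HKDC1, a further member of the hexokinase family, was 2.32-fold lower, with 1 of its 4 probe sets at -0.02, beside HK1 at 0.55 and HK2 at 0.53. 

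In the pentose phosphate branch, 1 of 6 measured genes was at least 2-fold higher, RPIA (ribose 5-phosphate isomerase) with 1086 in the stretched and 430 in the non-stretched array, against 7.79% of all measured genes, and none was at least 2-fold lower. In the MYC and MondoA network, which also feeds glycolytic gene expression, MYC itself was at 0.32, less than the SD of a single probe set. Of the network's 10 measured genes 7 lay above 0, against 6789 of all 13473 measured genes. The list mixes MYC with genes that oppose it or restrain glucose uptake, so this count has no single direction. In this list 1 gene was at least 2-fold lower and 1 higher, against 7.54% and 7.79% of all measured genes. MNT, like MXI1 a MAX partner that opposes MYC, was 2.26-fold lower. TXNIP, a glucose-responsive inhibitor of glucose uptake, was 3.44-fold higher, with a signal of 36.4 in the non-stretched array that lay near the floor and a second probe set at 0.36.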

How the data were processed

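Total RNA of 1 stretched and 1 non-stretched Calu-3 culture was turned into biotinylated cRNA (6 µg of RNA) and hybridised to Affymetrix arrays, per the labels' protocols. The deposited table holds 1 linear intensity per probe set and array, for 54675 probe sets; how the authors summarised and scaled it is not given in the sources used here. Gene names came from the platform's annotation, with symbols updated by gene ID to RefSeq (GRCh38.p14). A single gene was named for 41091 ordinary probe sets (54 keep an older symbol), several for 1801 and none here for 11721.

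Intensities were used as deposited because the array medians differed by -0.017 on the log2 scale, under a tolerance of 0.1. Values under an array's 50th percentile were raised to it, and log2 was taken. The ordinary probe set of highest mean log2 signal stood for its gene. Called means a 2-fold difference. With 1 array per group no test was possible. Every member was named; of the other lists, up to 6 genes past 2-fold, paralogs or subunits needed beside a member, and MYC and genes marked as named after their values were seen. The members and lists were chosen with earlier results of these data known. The calculation of calls was tested on simulated data with probe noise only, which says nothing about variation between cultures. Python 3.11.15, numpy 2.4.6 and pandas 2.3.3 were used. Alternatives covered scaling, floor, probe set choice, fold and gene split.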

Additional observations from a re-analysis of the deposited data

How the results depend on the processing

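With 1 array per condition, no setting can show variation between cultures; the number of arrays limits every value. The median log2 difference of the HIF targets outside glycolysis, -1.01, was -1.12 with centring on the 75th percentile, -0.89 with centring on the spike-ins, -1.15 with probe sets averaged, -1.12 without EGLN1 and EGLN3 and -1.20 as a mean. The number at least 2-fold lower, 7 of 13, was 4 of 8 when probe sets named _x_at or _s_at were left out, 4 of 9 among genes with a mean signal of at least 500, and 11 of 13 at 1.5-fold; the same counts, 4, 4 and 11, hold for all members. The first 2 of these settings tested fewer genes. With the floor at the 75th percentile the count was 5 of 12. It was 9 of 13 with quantile normalization and with centring on the 75th percentile, 8 of 13 with probe sets averaged and 6 of 13 on the spike-ins. The glycolytic median, 0.22, was 0.11 with centring on the 75th percentile and 0.33 on the spike-ins. The gap between the groups, -1.23, was -1.36 with probe sets averaged, -1.34 without EGLN1 and EGLN3 and -1.36 by means. The median over all members, -0.14, mixes both groups. It was -0.25 with centring on the 75th percentile, -0.030 on the spike-ins, -0.043 with probe sets averaged, -0.27 without _x_at and _s_at and -0.35 as a mean, and it changed sign to 0.066 in genes with a mean signal of at least 500, where the cause was not tested. Quantile normalization, no floor, control probe sets and counting PDK1 and PDK3 as glycolytic moved no median by over 0.1. None of the listed glycolytic members was 2-fold different in any of the settings run. The list of other glycolytic isozymes and sugar carriers, where 4 of 17 were at least 2-fold lower, was not run under these settings. Of 53 recomputed values of the 7 members that differed 2-fold, 3 came under 2-fold: VEGFA on the spike-ins, and ADM and ANKRD37 with the floor at the 75th percentile, which raises their stretched values to the floor by construction. NDRG1 was at -2.55 under that floor for the same reason. The settings for brightness and for means were chosen after seeing the data.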
